A study of Mus musculus with 22 samples.

Results

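The set holds 34 genes of the contractile apparatus and actin cytoskeleton, of 18193 genes measured, in fibroblasts cultured from mouse embryos (MEFs). The members were given by name. Each was read from the probe set, a group of array probes designed against a transcript, with the highest mean among those that the platform annotation assigns to that gene alone. RNA was taken 7 days after infection with an adenovirus and measured on whole-genome Affymetrix mouse arrays, 22 of which were used here. The 5 control arrays came from MEFs labelled wild type that received a GFP virus. The 5 oncogene arrays came from MEFs with a Cre-inducible mutant oncogene allele and a Cre virus. The series' design text names 6 such arrays. The 5 Wt1-null arrays came from cells whose Wt1 gene was deleted. Replicates 1 and 2 are labelled as Wt1 f/f MEFs given the Cre virus, and replicates 3 to 5 are labelled Wt1-null with no allele or virus in their own label, while the design text gives Cre for all. The 7 double arrays came from MEFs in which the Cre virus did both, with alleles not spelled out. Every group other than the control received Cre, so genotype and virus cannot be told apart in a comparison with the control. Nothing in the labels tells if the replicates are separate embryos, cultures or neither, and p-values here measure only the spread between these arrays, which may be technical.

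Fibroblasts pull on their surroundings with stress fibres, bundles of actin filaments crosslinked by alpha-actinin, covered by tropomyosin and drawn together by myosin II. The fibres end in focal adhesions, where talin and vinculin join them to integrins. When fibroblasts become myofibroblasts they switch on smooth muscle genes such as Acta2, Tagln and Cnn1. Many of these genes are driven by the transcription factor SRF, which binds the CArG box and works with myocardin or with the related MRTF proteins, which enter the nucleus when monomeric actin is low.

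Promoters are shown for 4 members with a CArG box and for Cnn1, the member with the largest difference, in which none was found. Each window is the 250 bases before the transcription start, 5′ to 3′ on the gene's strand, from RefSeq on mouse assembly GRCm38.p6, in lower case with CArG boxes in capitals. The Srf window is chr17:46556163-46556412 on the minus strand, Cnn2 is chr10:79988350-79988599, Myl9 is chr2:156775214-156775463, Vcl is chr14:20929148-20929397 and Cnn1 is chr9:22099003-22099252, the last 4 on the plus strand.
Srf: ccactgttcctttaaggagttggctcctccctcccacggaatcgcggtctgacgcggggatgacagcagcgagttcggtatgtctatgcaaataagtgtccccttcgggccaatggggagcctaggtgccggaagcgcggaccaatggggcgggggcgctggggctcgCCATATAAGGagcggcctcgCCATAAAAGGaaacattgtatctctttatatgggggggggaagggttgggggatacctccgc
Cnn2: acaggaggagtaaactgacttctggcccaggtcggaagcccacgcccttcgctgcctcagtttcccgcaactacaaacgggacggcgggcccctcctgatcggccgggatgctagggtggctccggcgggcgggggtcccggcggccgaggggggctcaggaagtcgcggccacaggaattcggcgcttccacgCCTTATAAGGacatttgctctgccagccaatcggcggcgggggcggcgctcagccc
Myl9: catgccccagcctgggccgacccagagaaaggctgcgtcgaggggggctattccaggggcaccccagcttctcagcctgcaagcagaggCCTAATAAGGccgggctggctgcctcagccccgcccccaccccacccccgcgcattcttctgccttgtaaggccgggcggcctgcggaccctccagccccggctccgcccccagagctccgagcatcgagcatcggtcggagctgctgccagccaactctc
Vcl: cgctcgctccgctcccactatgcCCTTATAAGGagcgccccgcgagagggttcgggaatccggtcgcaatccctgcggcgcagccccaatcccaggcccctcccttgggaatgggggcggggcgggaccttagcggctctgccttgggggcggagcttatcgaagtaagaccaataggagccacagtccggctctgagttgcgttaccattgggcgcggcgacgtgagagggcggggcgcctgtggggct
Cnn1: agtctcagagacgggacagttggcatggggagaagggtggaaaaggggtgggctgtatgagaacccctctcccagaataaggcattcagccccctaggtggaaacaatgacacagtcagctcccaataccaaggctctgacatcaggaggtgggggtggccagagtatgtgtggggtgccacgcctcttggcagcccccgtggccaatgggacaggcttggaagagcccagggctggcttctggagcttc
The Srf window holds 2 boxes, whose first bases lie 82 and 62 bases before the start. The box of Cnn2 lies 56 bases before the start, that of Myl9 161 bases and that of Vcl 227 bases. Searched on both strands as an exact match of 10 bases, the box was in 6 of 35 member windows (17.1%), which belong to 5 of the 29 members with a window (Fhl2 is the fifth). It was in 482 of 32851 windows of that length over all genes (1.47%). A match is a description of these letters, and no match says only that the letters are not in that window. Myocd, Myh11, Tagln, Actg2 and Csrp2 had no window.

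All levels are log2 values made by RMA, in which a difference of 1 is a doubling. Array medians ran from 6.23 to 6.33. The means of 10 fibroblast markers ran from 7.99 for Fap to 14.83 for Vim, with Col1a1 at 14.25. Whether the cells were fibroblasts or myofibroblasts was not tested. Some arrays did not sit with their group. Of all arrays, double replicate 2 most resembled Wt1-null replicate 2, with a correlation of 0.998 and an SD of their difference of 0.146. Over the members these arrays differed by a median of 0.0715 and at most 0.2545 on the log2 scale, and Wt1-null replicate 2 was the lowest of the 5 Wt1-null arrays at 32 of 34 members. Wt1 itself read 4.16 to 4.77 over all 22 arrays, at the level of the background described for Myocd, so the deletion could not be checked from it. Whether the label of either array was exchanged was not tested, and the Wt1-null values rest on the labels as given. Results with the Wt1-null group are therefore given with and without Wt1-null replicate 2. As that array was the lowest of its group at most members, its removal raises the members in this group by construction. Values without it are a description. Within the Wt1-null group, replicates 3 and 4 came close to being the same (SD of their difference 0.149). The arrays least like the rest were oncogene replicate 4 and double replicate 4, with mean correlations of 0.961 and 0.932. The accession numbers fall into 3 sets, which the labels do not call batches. Set 1 holds 2 Wt1-null arrays and 1 oncogene array, set 2 holds 3 Wt1-null arrays and 1 control array, and set 3 holds 4 control, 4 oncogene and 7 double arrays. Xist, which coats the inactive X, was high in 5 of 7 double arrays, in 2 of 5 arrays of both the control and the Wt1-null group and in 0 of 5 oncogene arrays.

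The mean of the 34 members in each array gave a first view of the set. It was 11.65, 11.82, 11.55, 11.58 and 11.32 in control replicates 1 to 5. Oncogene replicates 1, 3, 4, 5 and 6 read 10.90, 11.22, 11.18, 11.45 and 11.43. The control and oncogene ranges overlapped, since control replicate 5 lay below 2 oncogene arrays. Wt1-null replicates 1 to 5 read 11.95, 11.08, 12.19, 12.14 and 11.94. The double arrays ran from 10.79 to 11.53 with a group mean of 11.11 ± 0.26 (SD, n = 7). The control mean was 11.58 ± 0.18 and the oncogene mean 11.24 ± 0.22, and that of the Wt1-null arrays was 11.86 ± 0.45 (SD, n = 5 for each). Without replicate 2 the Wt1-null mean was 12.06 ± 0.13 (SD, n = 4), and these 4 arrays lay above every other array. The mean over all genes stayed between 7.68 and 7.75 in every array. In bulk RNA, fewer contractile cells and less contractile RNA per cell cannot be told apart.

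**Figure D1:**
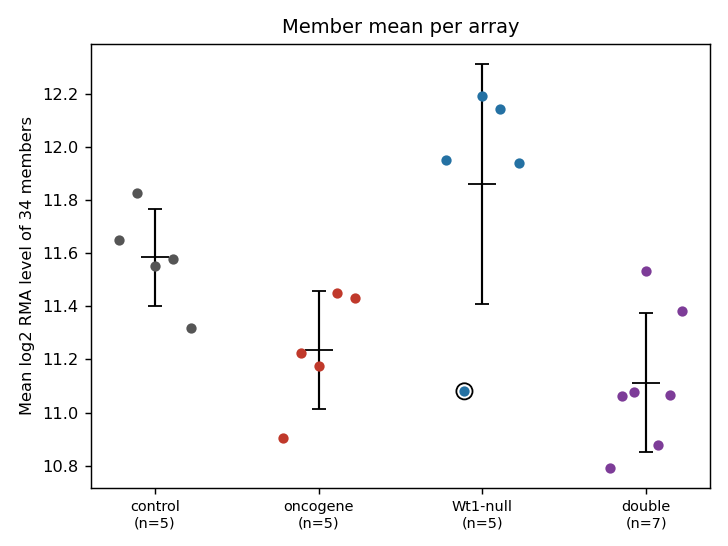
Mean log2 level of the 34 members in each array (points), by group, with the group mean and SD (bars). The ringed Wt1-null replicate 2, at 11.08, lies among the double arrays, while the other 4 Wt1-null arrays lie between 11.94 and 12.19.

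With both the oncogene and Wt1 loss, Cnn1 (6.54-fold), Actg2 (5.12-fold), Limch1 (3.37-fold), Lmod1 (2.23-fold) and Cnn2 (1.27-fold) were lower than in control. Of the 34 members, 5 were called lower at an adjusted p below 0.05 by limma and none higher, which is 14.7% of them. Over all genes 2.45% were called lower, 3.48% higher and 5.93% in either direction. In double against control 24 members were lower and 10 higher, with a median difference of -0.23, beside a median of -0.02 over all genes, of which 54.6% were lower. With the oncogene alone no member was called, against 2.04% of all genes. In oncogene against control 25 members were lower and 9 higher, with a median of -0.15 against -0.03 over all genes, and 10 of 34 had an unadjusted p below 0.05, against 15.0% of all genes. The comparisons with control share the same 5 control arrays.

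**Figure D2:**
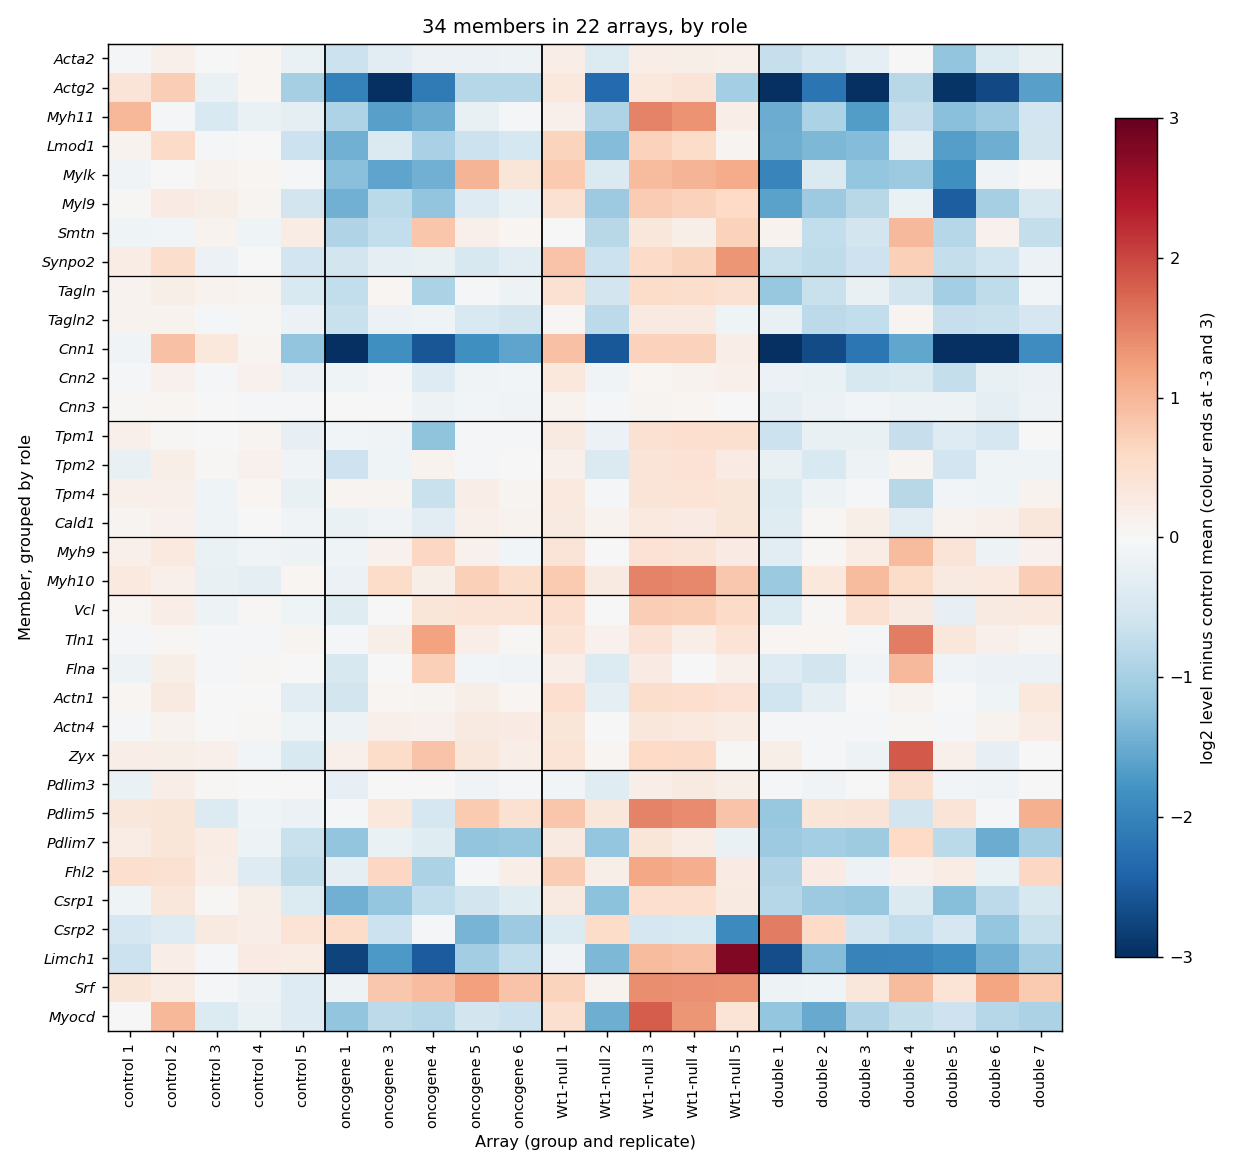
Each cell is a member's log2 level in 1 array minus its control mean, with red for higher and blue for lower; members are in rows by role and arrays in columns by group. Blue runs through the smooth muscle and calponin rows of the oncogene and double arrays and of Wt1-null replicate 2, and the other 4 Wt1-null arrays are mostly red.

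Among the 8 smooth muscle contractile proteins all were lower in both comparisons with control, with median differences of -0.69 for the oncogene and -1.02 for double arrays, and 2 passed the test in double arrays. Actg2, the gamma smooth muscle actin (probe set 1422340_a_at), read 12.29, 12.65, 11.70, 11.97 and 10.90 in control replicates 1 to 5. Oncogene replicates 1, 3, 4, 5 and 6 read 9.88, 8.82, 9.79, 11.05 and 11.05, and double arrays ran from 8.78 through a median of 9.20 to 11.07. Control replicate 5 lay within the oncogene and double ranges, and the other control arrays lay above all of them. The log2 difference for Actg2 was -2.36 ± 0.51 (SE) in double against control (adjusted p = 0.00941 by limma) and -1.78 ± 0.55 in oncogene against control (adjusted p = 0.103 by limma). Lmod1, leiomodin, which nucleates actin filaments in smooth muscle (probe set 1427485_at), read 8.65, 9.11, 8.51, 8.56 and 7.91 in control arrays. It ran from 6.89 through 7.20 to 8.26 in double arrays and read 7.11, 8.11, 7.59, 7.92 and 8.01 in oncogene arrays. Double replicates 4 and 7 were above control replicate 5, so the groups overlapped. Lmod1 fell by 1.15 ± 0.32 (SE) in double arrays (adjusted p = 0.0325 by limma), and its difference of -0.80 ± 0.34 in oncogene arrays was not called (adjusted p = 0.259 by limma).

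Myh11, the smooth muscle myosin heavy chain, did not overlap between double and control arrays, although its adjusted p missed the threshold. It read 8.65, 7.62, 7.22, 7.47 and 7.37 in control arrays and ran from 5.98 through 6.57 to 7.10 in double arrays. The difference was -1.10 ± 0.37 (SE), with an adjusted p of 0.0876 by limma. Myl9, the regulatory light chain that switches smooth muscle myosin on when phosphorylated, read 13.25, 13.47, 13.40, 13.31 and 12.68 in control arrays, 11.79, 12.40, 12.04, 12.84 and 13.02 in oncogene arrays and 10.75 to 13.03 (median 12.24) in double arrays. Control replicate 5 was again the only control array inside those ranges. Myl9 differed by -1.09 ± 0.35 in double (adjusted p = 0.0720 by limma) and -0.80 ± 0.38 in oncogene arrays (adjusted p = 0.326 by limma). Mylk, the kinase that phosphorylates this light chain, split the oncogene arrays: replicates 1, 3 and 4 read 8.43, 8.11 and 8.26, and replicates 5 and 6 read 10.71 and 10.06, above all control arrays (9.59 to 9.80). Its difference was -0.58 ± 0.47 in oncogene and -0.95 ± 0.43 in double arrays, neither called. Acta2, the alpha smooth muscle actin that marks myofibroblasts, read 14.57 to 14.92 in control arrays, near the top of a scale that ended at 15.14. Its differences there were small, -0.29 ± 0.17 in oncogene and -0.47 ± 0.16 in double arrays (adjusted p = 0.0829 by limma). A second Acta2 probe set (1444105_at), with a mean of 6.14, differed by -1.44 in double arrays, with an adjusted p of 0.0424 by limma over all probe sets. The actin-associated proteins Smtn (smoothelin) and Synpo2 differed by -0.12 and -0.37 in oncogene and by -0.23 and -0.40 in double arrays, none called.

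The calponin and transgelin family, actin-binding proteins that stabilise filaments and restrain myosin, was lower at 5 of 5 members in both comparisons, with 2 called in double arrays. Cnn1, smooth muscle calponin (probe set 1417917_at), read 12.15, 13.14, 12.58, 12.34 and 11.07 in control replicates 1 to 5. Oncogene replicates 1, 3, 4, 5 and 6 read 9.22, 10.42, 9.68, 10.41 and 10.68, and double arrays ran from 8.09 through 9.58 to 10.70. No oncogene or double array reached the lowest control array. Cnn1 fell by 2.71 ± 0.54 (SE) in double arrays (adjusted p = 0.00538 by limma), and its difference in oncogene arrays was -2.18 ± 0.58 (adjusted p = 0.0574 by limma). Cnn2, the calponin of nonmuscle cells (probe set 1450981_at), fell by much less: 13.67, 13.85, 13.65, 13.84 and 13.54 in control arrays against 13.002 to 13.54 (median 13.48) in double arrays, a difference of -0.34 ± 0.10 (adjusted p = 0.0492 by limma). The highest double array was just above the lowest control array. Oncogene arrays read 13.58, 13.64, 13.32, 13.61 and 13.62 for Cnn2, a difference of -0.16 ± 0.11 that was not called. Cnn3, the calponin found in many cell types, read 13.64 to 13.78 in control and 13.43 to 13.62 in double arrays, which did not overlap (-0.18 ± 0.06, adjusted p = 0.0731 by limma). Tagln (transgelin, or SM22) and Tagln2 differed by -0.36 and -0.40 in oncogene and by -0.64 and -0.51 in double arrays, none called.

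**Figure D3:**
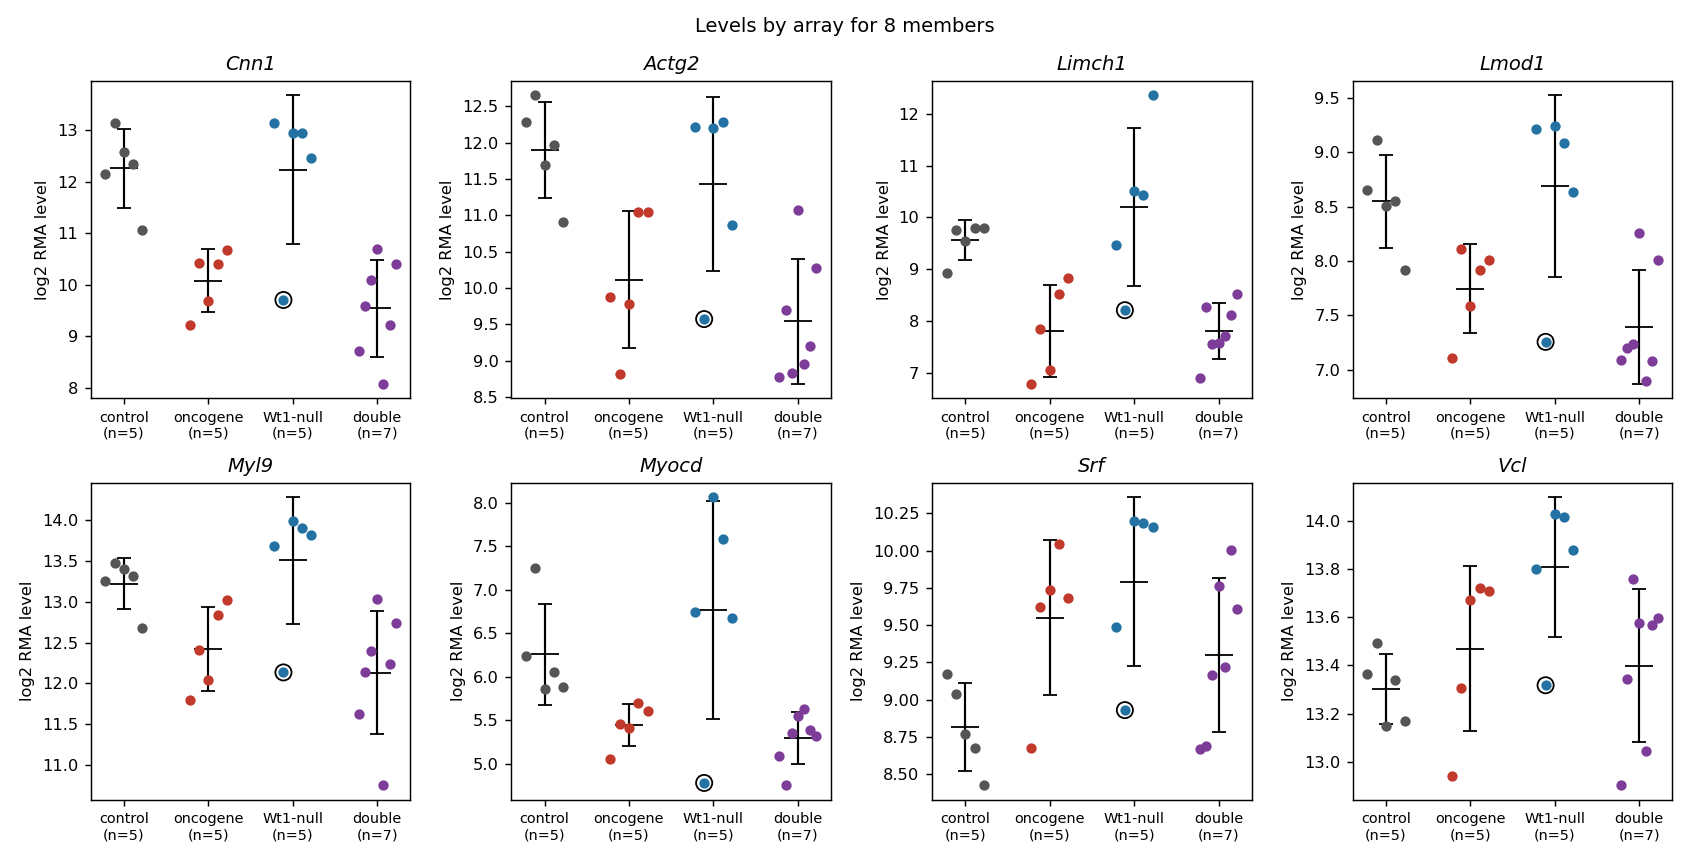
Log2 level in each array of 8 members, by group, with group mean and SD; Wt1-null replicate 2 is ringed. Cnn1 and Limch1 are lower in every oncogene and double array than in every control array, while Srf and Vcl overlap.

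Tropomyosins, which line actin filaments and gate myosin, and caldesmon differed little from control. Tpm1 differed by -0.30 ± 0.19 in oncogene and -0.38 ± 0.18 in double arrays, Tpm2 by -0.14 and -0.22, Tpm4 by -0.04 and -0.22 and Cald1 by -0.08 and 0.01, and 0 of 4 were called in either comparison. The nonmuscle myosin II heavy chains went the other way without passing the test. Myh9 differed by 0.14 ± 0.19 and 0.18 ± 0.17 in oncogene and double arrays, and Myh10 by 0.36 ± 0.30 and 0.29 ± 0.28. The 6 crosslinking and adhesion genes, Vcl (vinculin), Tln1 (talin), Flna (filamin A), Actn1, Actn4 (alpha-actinins) and Zyx (zyxin), showed differences of -0.04 to 0.42 in oncogene and -0.08 to 0.31 in double arrays, and 0 of 6 were called. Tln1, Flna and Zyx were each highest in double replicate 4, at 13.26, 14.11 and 13.35. The other 6 double arrays read at most 12.05, 13.02 and 11.68.

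Among the 7 LIM domain genes, whose zinc-finger domains hold proteins together on actin, 1 passed the test. Limch1, which activates nonmuscle myosin II (probe set 1435321_at), read 8.92, 9.77, 9.54, 9.80 and 9.79 in control replicates 1 to 5. Oncogene replicates 1, 3, 4, 5 and 6 read 6.79, 7.85, 7.06, 8.51 and 8.83, and double arrays ran from 6.91 through 7.71 to 8.53. Neither range overlapped the control arrays. Limch1 fell by 1.75 ± 0.50 (SE) in double arrays (adjusted p = 0.0409 by limma), and its difference in oncogene arrays had the same size with a larger error (-1.75 ± 0.54, adjusted p = 0.101 by limma). A further probe set of Limch1 (1435106_at) gave -1.75 and -1.79 in these comparisons, 1453802_at gave -0.52 and -0.48, and 1440776_at, with a mean of 4.95 in the background range, gave -0.03 and -0.11. Csrp1, a cysteine-rich LIM protein of smooth muscle, read 12.61, 13.07, 12.75, 12.90 and 12.31 in control arrays, 11.28, 11.57, 11.98, 12.17 and 12.35 in oncogene arrays and 11.45 to 12.30 in double arrays. The double arrays lay just below all control arrays, and oncogene replicate 6 just above the lowest. Its differences of -0.86 ± 0.26 in double (adjusted p = 0.0524 by limma) and -0.86 ± 0.28 in oncogene arrays (adjusted p = 0.124 by limma) were not called. Pdlim7 differed by -0.84 and -0.82 in double and oncogene arrays. Csrp2, Fhl2, Pdlim3 and Pdlim5 differed by -0.22 to 0.07 in double and -0.53 to 0.20 in oncogene arrays. None of these 5 was called.

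Of the transcription genes, neither passed the test in these comparisons. Srf, the factor that binds the CArG box, read 9.18, 9.04, 8.77, 8.67 and 8.43 in control arrays, 8.67, 9.62, 9.74, 10.04 and 9.68 in oncogene arrays and 8.67 to 10.002 (median 9.22) in double arrays. Its differences of 0.73 ± 0.29 and 0.49 ± 0.27 were above 0 and not called (adjusted p = 0.223 and 0.339 by limma). A second Srf probe set (1418256_at) gave 0.18 and -0.09. Myocd, the myocardin coactivator of smooth muscle genes, read 6.23, 7.26, 5.86, 6.06 and 5.88 in control arrays, 5.06, 5.46, 5.41, 5.69 and 5.61 in oncogene arrays and 4.75 to 5.63 in double arrays. Neither range overlapped the control arrays, but the level was low, next to a background of 3.65 to 5.06 set by 3 Y-linked genes in the 9 arrays with high Xist. Myocd differed by -0.81 ± 0.41 and -0.96 ± 0.38 in oncogene and double arrays (adjusted p = 0.361 and 0.145 by limma), and a second probe set (1425808_a_at) gave -0.08 and -0.03.

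Counted by overlap, 3 members lay wholly below control in oncogene arrays (Cnn1, Limch1 and Myocd), 8.82% of the set, beside 2.81% of all genes. In double arrays 6 did (Cnn1, Limch1, Myocd, Myh11, Cnn3 and Csrp1), 17.6%, beside 1.79% of all genes. Within accession set 3 alone, Cnn1 differed by -2.74 (adjusted p = 0.00565), Actg2 by -2.26 (0.0246), Limch1 by -1.91 (0.00471) and Lmod1 by -1.13 (0.0304) in double against control by limma, while Cnn2 at -0.35 was not called (0.113). The number of members called in double against control depended on single arrays. It fell to 2 without control replicate 2, 3 or 4 or double replicate 3 or 5, in fits that called 3.12 to 4.76% of all genes. It fell to 3 without control replicate 1, Wt1-null replicate 3 or 4 or double replicate 6, with 5.10 to 5.73% of all genes called. It rose to 8 without double replicate 4, against 7.64% of all genes, and to 10 without Wt1-null replicate 2, against 2.87% of all genes called lower in the latter fit. In oncogene against control, Cnn1, Limch1 and Csrp1 were called lower without Wt1-null replicate 2, against 0.984% of all genes. In the same comparison 1 member was called without Wt1-null replicate 5, control replicate 5 or double replicate 1, 4 or 5. These fits called 1.68 to 3.75% of all genes. An array outside the groups compared enters only through the shared spread. Cnn1 in oncogene against control kept its difference of -2.18 without Wt1-null replicate 2, while its SE went from 0.58 to 0.44. That array was the lowest of its group at most members, so the counts without it are in part built in. In double against control, Cnn1 and Actg2 were called in all 22 fits that left out 1 array, Lmod1 in 14, Limch1 in 12 and Cnn2 in 7. With Xist as a covariate Cnn1 (-2.24) and Actg2 (-2.05) were called and Lmod1, Limch1 and Cnn2 were not. The part of Xist, whose share of high arrays differed between groups, was otherwise not tested.

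**Figure D4:**
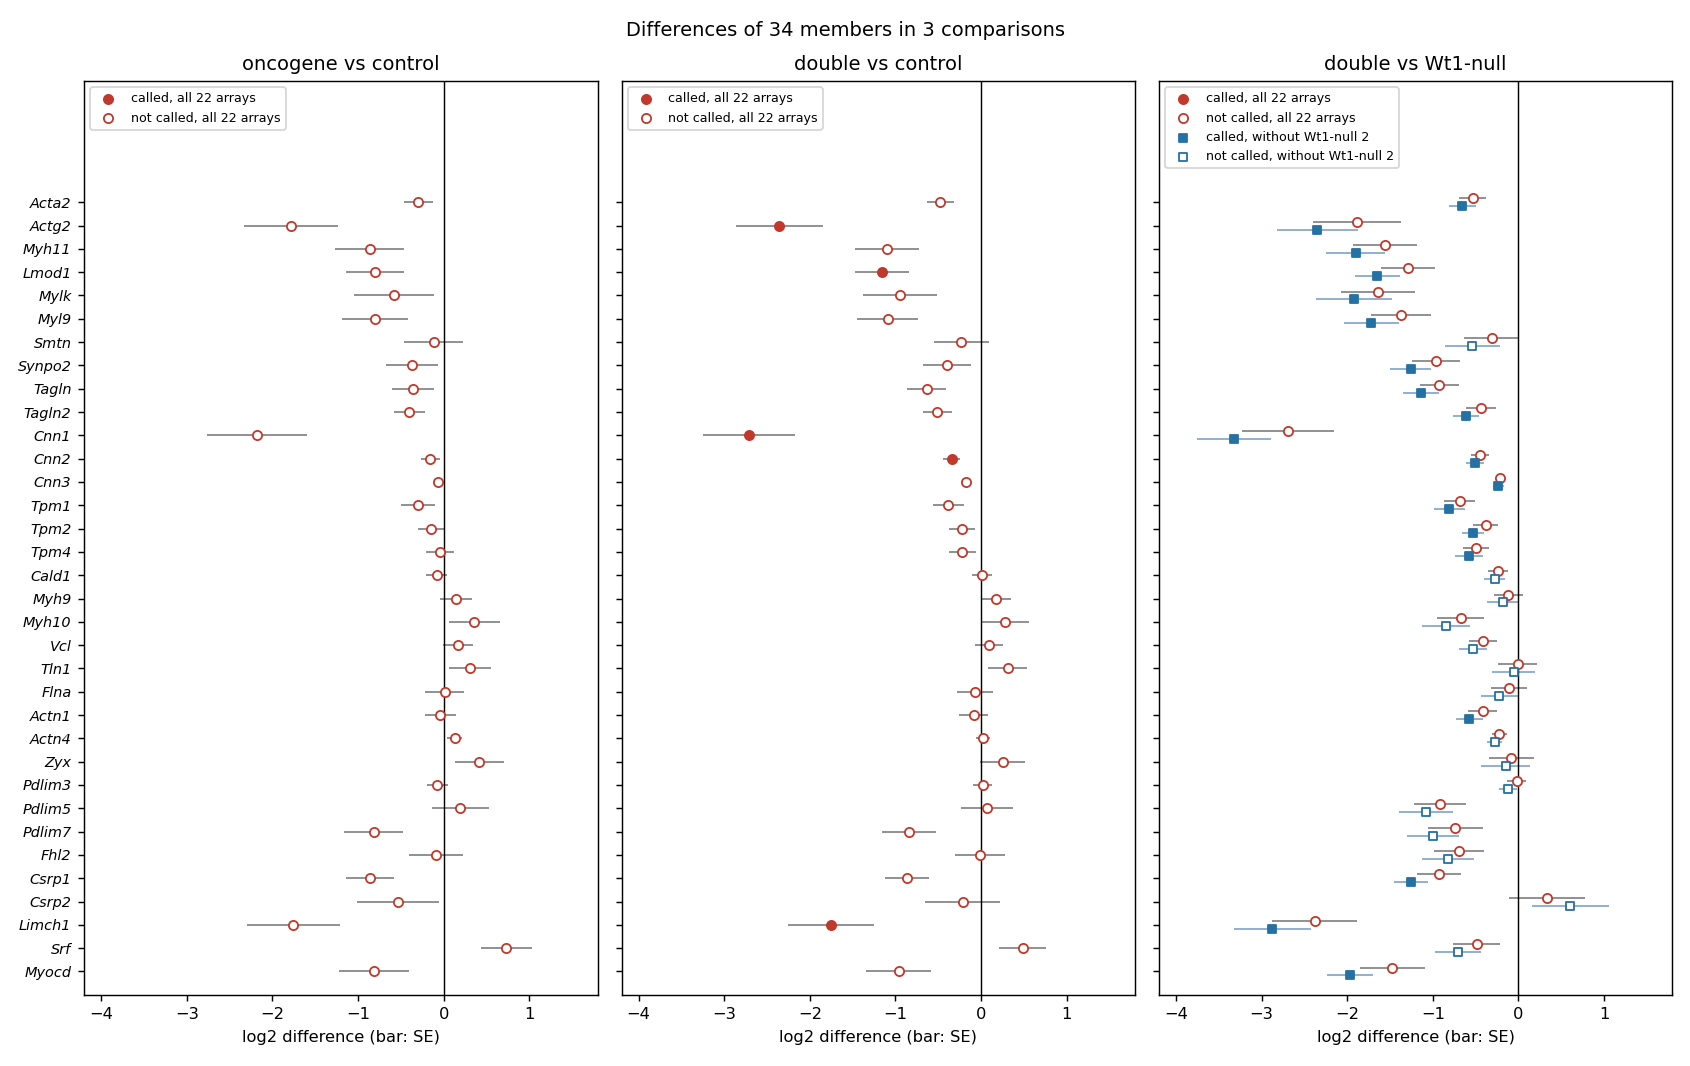
Log2 differences of the 34 members (points) with SE (bars) in oncogene against control, double against control and double against Wt1-null, filled where called by limma. Squares in the right panel leave out Wt1-null replicate 2; 19 of them are filled, against 0 circles.

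Loss of Wt1 alone gave no called member in comparison with control, against 0.104% of all genes. The set's median had the opposite sign to that with the oncogene. Of the members 29 were higher and 5 lower, with a median of 0.28 against -0.05 over all genes, of which 59.7% were lower. The 9 members that were higher with the oncogene were higher here too. Of the 34 members, 6 had an unadjusted p below 0.05, against 12.7% of all genes. The smallest p-values belonged to Srf, Myh10, Pdlim5 and Vcl, which also lay above control with the oncogene (0.73, 0.36, 0.20 and 0.17). Wt1-null replicates 1 to 5 read 9.49, 8.93, 10.20, 10.18 and 10.16 for Srf, against control values of 8.43 to 9.18, and the difference was 0.97 ± 0.29 (SE, adjusted p = 0.212 by limma). Myh10, the heavy chain of nonmuscle myosin IIB, read 12.35, 11.85, 13.07, 13.02 and 12.39 against 11.31 to 11.86 (0.96 ± 0.30, adjusted p = 0.227 by limma). Pdlim5, a Z-line and stress fibre scaffold, read 12.49, 12.01, 13.16, 13.09 and 12.53 against 11.26 to 12.02 (0.99 ± 0.33, adjusted p = 0.249 by limma). For all 3 genes replicate 2 was the only Wt1-null array inside the control range. Vcl read 13.80, 13.32, 14.03, 14.02 and 13.88 against 13.15 to 13.49 (0.51 ± 0.18, adjusted p = 0.268 by limma), with the same array inside the control range. Other probe sets of Srf (1418256_at) and Myh10 (1441057_at) gave 0.16 and -0.01. Tln1 was the only member whose Wt1-null arrays all lay above control, 2.94% of the set beside 1.49% of all genes. Without replicate 2, 32 members were higher with a median of 0.40, 14 lay wholly above control, beside 2.72% of all genes, and still none was called, against 0.0275% of all genes called higher and 0.0440% called lower. Myh10 was called without double replicate 1, in a fit that called 0.665% of all genes. Array weights called 19 members higher in this comparison, against 33.1% of all genes, among them Myh10 (1.41) and Srf (1.32). Only accession set 2 holds both groups, with 3 Wt1-null arrays and 1 control array, so genotype and set are largely confounded. Within this set the median was 0.36.

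Adding the oncogene to Wt1 loss compares groups that all received Cre per the design text. All 7 double arrays are in accession set 3 and all Wt1-null arrays in sets 1 and 2. Genotype and accession set thus cannot be told apart in this comparison. In double against Wt1-null 33 members were lower and 1 higher (Csrp2, 0.33 ± 0.44), with a median of -0.52 against 0.04 over all genes, of which 42.0% were lower. No member was called, against 0.0824% of all genes, although 25 of 34 had an unadjusted p below 0.05, against 14.8% of all genes. Cnn1 read 13.13, 9.71, 12.95, 12.94 and 12.46 in Wt1-null replicates 1 to 5, and 4 of them lay above 12 while replicate 2 lay inside the double range. The difference was -2.69 ± 0.54 (SE, adjusted p = 0.0558 by limma). Limch1 read 9.46, 8.21, 10.50, 10.43 and 12.35 (-2.38 ± 0.50, adjusted p = 0.0648 by limma), and Myh11 read 7.82, 6.73, 9.15, 9.01 and 7.87 (-1.55 ± 0.37, adjusted p = 0.0825 by limma). Over the alternatives, which include a further probe set of Myh11 (1418122_at), its difference came as near 0 as -0.25. Cnn2 read 14.03, 13.61, 13.77, 13.82 and 13.85 (-0.45 ± 0.10, adjusted p = 0.0799 by limma). Cnn2 and Cnn3 were the 2 members without overlap, 5.88% of the set beside 0.247% of all genes.

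These results turned on Wt1-null replicate 2. It was the lowest of its group at 32 of 34 members, so leaving it out raises their Wt1-null means, narrows the spread of most and lessens overlap. Genes at large were not picked that way, so a count above the share of all genes is in part built in. Without this array 19 members were called lower in double against Wt1-null by limma, against 1.85% of all genes, and none was called higher, against 3.24%. They were 7 of 8 smooth muscle proteins, 5 of 5 calponins and transgelins, 3 of 4 tropomyosins and caldesmon, 2 of 7 LIM domain genes, 1 of 6 adhesion genes, 0 of 2 nonmuscle myosins and 1 of 2 transcription genes. Cnn1 fell by 3.32 ± 0.44 (SE, adjusted p = 0.000328 by limma) and Myocd by 1.97 ± 0.27 (adjusted p = 0.000466 by limma). The double arrays read 4.75 to 5.63 for Myocd, next to the background, which ended at 5.06. The second probe set of Myocd differed little from control in double arrays. Limch1 (-2.88), Actg2 (-2.35), Mylk (-1.92), Myh11 (-1.90), Myl9 (-1.72), Lmod1 (-1.65), Synpo2 (-1.26), Csrp1 (-1.25), Tagln (-1.14) and Acta2 (-0.65) fell as well. Most of these encode contractile or actin-binding proteins of smooth muscle, and Myocd is the coactivator of such genes. Tpm1, Tpm2, Tpm4, Actn1, Tagln2, Cnn2 and Cnn3 fell by smaller amounts, from -0.81 to -0.23. The median was -0.68, and 17 members did not overlap, beside 1.92% of all genes. With replicates 3 and 4 also averaged into 1 sample, 11 members were called, against 1.95% of all genes. Leaving out oncogene replicate 4, which enters only through the shared spread, gave 3, against 0.313%. With array weights and all arrays it was 29, all lower, against 19.2%.

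Oncogene against Wt1-null arrays gave a like pattern with the same Wt1-null arrays. Only accession set 1 holds both groups, with 1 oncogene and 2 Wt1-null arrays, so genotype and set are largely confounded here too. Of the members 32 were lower and 2 higher, with a median of -0.36 against 0.03 over all genes, and none was called, against 0.0165% of all genes. The smallest p-values belonged to Limch1 (-2.38 ± 0.54, adjusted p = 0.170 by limma), Cnn1 (-2.16 ± 0.58, 0.282), Csrp1 (-0.93 ± 0.28, 0.358) and Myh11 (-1.31 ± 0.40, 0.361). Over the alternatives, its further probe set included, Myh11 came as near 0 as -0.25 here too. No member was free of overlap, beside 0.467% of all genes that were lower without overlap. Without Wt1-null replicate 2 the number called lower was 8, against 0.423% of all genes, 20 members did not overlap, beside 2.52%, and the median was -0.52. The 8 were Cnn1, Limch1, Myocd, Csrp1, Lmod1, Synpo2, Myh11 and Myl9.

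Loss of Wt1 in cells with the oncogene gave differences within the spread of the arrays. In double against oncogene 28 members were lower and 6 higher, with a median of -0.11 against 0.01 over all genes. No member was called and 0 had an unadjusted p below 0.05 by limma, and 0% of all genes were called. The smallest p-values belonged to Cnn3 (-0.11 ± 0.06), Cnn2 (-0.19 ± 0.10), Actn4 (-0.10 ± 0.08) and Tagln (-0.27 ± 0.23), each with an adjusted p of 0.9997 by limma. Every member overlapped between these groups, while 0.0879% of all genes did not. The interaction (double minus Wt1-null, less oncogene minus control) was below 0 for 31 members and above 0 for 3, with a median of -0.38 against 0.06 over all genes. None was called, against 0.0110% of all genes, and 5 had an unadjusted p below 0.05. Srf (-1.22 ± 0.40), Actn4 (-0.35 ± 0.12), Myh10 (-1.03 ± 0.41) and Pdlim5 (-1.12 ± 0.45) had the smallest p-values, each with an adjusted p of 0.580 by limma. Without Wt1-null replicate 2 the counts were 33 below 0 and none called, with a median of -0.53. Array weights called 14 members below 0 in the interaction, against 15.1% of all genes, with Srf at -1.67 and Myh10 at -1.38. An interaction was thus called under array weights and not with equal weights. All Wt1-null arrays are in accession sets 1 and 2 and all 7 double arrays in set 3. Genotype and accession set are therefore largely confounded in the interaction too.

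Other genes of the pathway came from 5 lists. Among 5 SRF cofactors Elk3, an ETS partner of SRF, rose in oncogene (0.58 ± 0.11, adjusted p = 0.00774 by limma) and double arrays (0.52 ± 0.10, adjusted p = 0.00390 by limma), and Mrtfb rose in double arrays (0.74 ± 0.21, adjusted p = 0.0448 by limma). The other SRF cofactors were not called in these comparisons. Of 14 cytoplasmic actins and filament regulators Pfn1, profilin, fell by 0.84 in double arrays, while Actb and Actg1 differed by -0.09 and 0.07. None of 9 nonmuscle contractile subunits was called with all arrays. Of 16 further adhesion genes paxillin, Pxn, rose by 1.18 in oncogene and by 1.46 in double arrays. None of 6 CCN and YAP target genes was called, and their median in Wt1-null against control was 0.78, with Ankrd1 at 2.10 (adjusted p = 0.318 by limma). No gene of these lists was called in the other comparisons with all arrays. Without Wt1-null replicate 2, double against Wt1-null arrays had Dstn (-0.64), Wdr1 (-0.56) and Coro1c (-0.66) of the filament regulators, Myl12a (-0.27) of the contractile subunits and Palld (-0.58) of the adhesion genes called lower, and Myl12b (0.66) and Pxn (1.12) called higher. In that fit Coro1c was also lower in double against control (-0.55) and Dstn in oncogene against Wt1-null arrays (-0.61).

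The markers of other cell types are given by their mean log2 level per array. The 8 smooth muscle and pericyte markers that are no members ran from 7.73 to 8.05 in control, 7.88 to 8.84 in oncogene, 8.29 to 8.76 in Wt1-null and 7.91 to 8.78 in double arrays. Of these 8, Npnt rose by 1.98 in oncogene and by 1.44 in double arrays and the rest were not called. The 12 skeletal and cardiac markers ran from 6.01 to 6.42 in control, 5.73 to 6.06 in oncogene, 5.90 to 6.35 in Wt1-null and 5.82 to 6.38 in double arrays, and 0 were called with all arrays. Without Wt1-null replicate 2, Acta1 was called lower in double against Wt1-null (-1.98) and Myh3 lower in double against control (-0.26). Among them Acta1, the skeletal actin, had group means of 11.54, 10.50, 11.95 and 10.47 in control, oncogene, Wt1-null and double arrays. Of the myogenic factors, Myf5 was within the background (3.73), and Myod1 (5.55) and Myog (5.49) read above it. The 10 fibroblast markers ran from 12.59 to 13.34 in control, 13.06 to 13.56 in oncogene, 12.86 to 13.36 in Wt1-null and 12.68 to 13.45 in double arrays. Pdgfra rose by 1.97 in oncogene and by 1.78 in double arrays, and Fn1 rose by 0.91 in double arrays. The 7 endothelial markers had group means of 5.21 to 5.41 and the 6 leukocyte markers of 5.99 to 6.24. In each, 1 gene was called, in double arrays, where Tek rose by 1.29 and Cd68 by 0.80. The defining Pecam1 (4.62) and Ptprc (4.52) were within the background. The highest endothelial and leukocyte markers, Kdr (7.17) and Csf1r (7.30), read above it. The 6 epithelial markers had group means of 6.64 to 6.98 and the 4 mesothelial markers of 6.04 to 6.53, with 0 called in either. Of the epithelial markers Cdh1 (4.03) was within the background, and the others read from 6.02 (Cldn4) to 8.79 (Krt19). Of the mesothelial markers Lrrn4 (4.50) was within the background, Upk3b (5.21) was just above it, and Msln was the highest at 9.40. Msln had group means of 8.28, 10.29, 9.48 and 9.51 in control, oncogene, Wt1-null and double arrays. Without Wt1-null replicate 2, Tek (1.29) was called higher in oncogene against control too, Pdgfra (2.08), Tek (1.17) and Cd68 (0.78) were called higher in double against Wt1-null, and Pdgfra (2.27) in oncogene against Wt1-null. The part of these cell types in the results was not tested.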

How the data were processed

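The authors deposited log2 values normalized by RMA in Affymetrix Expression Console, as the submitters' processing notes and the design text state, with software versions not given in the sources used here. RMA corrects background, makes the distribution of every array the same and combines the probes of each probe set. Differences near the floor are compressed by it, and shifts shared by most genes are hidden. The table held 45101 probe sets, from which 64 controls were left out. The platform annotation named 1 gene for 34945, several for 932 and none for 9160, and 34741 of the first matched RefSeq (GRCm38.p6) by gene ID. Each of 18193 genes was read from its probe set with the highest mean. Groups were taken from the labels, and the oncogene by name and 1 further gene list are not reported here.

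Group means of all 22 arrays were fitted with limma 3.58.1 in R 4.3.3 (lmFit and eBayes). The Benjamini-Hochberg adjustment ran over all genes, and an adjusted p below 0.05 was the threshold for a call. The members and gene lists were chosen with earlier results of these data known. Full statistics were given to the members called in a comparison or, with fewer than 4 called, to the 4 with the smallest p, and listed genes outside the set were named if called; Actb, Actg1 and the marker genes are named in addition. On simulated data with 18193 genes, log2 changes of 1 were recovered for 75% of 100 genes and of 2 for 98% in double against control, for 70% and 97% in oncogene against control and for 80% and 97% in double against Wt1-null. In the deposited values Cnn1 (-2.69) and Limch1 (-2.38) in double against Wt1-null were not called. The simulated shares therefore do not mean that an uncalled member has a small difference. Precision is limited by how many arrays there are.

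The alternatives were another probe set or the mean of all, array weights, leaving out dim genes, centring on array medians, a second quantile normalization, a variance that was trended and robust, a fit of the groups compared alone, replicate number or accession set as a block, accession set 3 alone, Xist as a covariate, leaving out each array or the pair of arrays that stood apart, and averaging the near-identical pair. Leaving out Wt1-null replicate 2 together with that average, and accession set 2 alone, were added after seeing the data.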

Additional observations from a re-analysis of the deposited data

Results flagged for a closer look

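In each group the highest and lowest array of every member, and of the members' mean, was set against the rest of its group by Dixon's criterion. Of 140 groups checked, 25 had an array that stood apart, where chance gives about 1 in 20 groups, or 7.0. The checks use the same arrays for every member and for their mean. They are thus not independent, and a single array can count many times. Wt1-null replicate 2 accounted for 9 of the 25, each time as the lowest array. It read 14.34 for Acta2, 9.25 for Mylk, 12.13 for Myl9, 13.67 for Tagln, 9.71 for Cnn1, 13.83 for Tpm4, 12.86 for Actn1 and 11.50 for Csrp1, and 11.08 for the mean of the 34 members. Double replicate 4 stood apart 6 times as the highest array, at 6.92 for Synpo2, 13.26 for Tln1, 14.11 for Flna, 13.35 for Zyx, 6.41 for Pdlim3 and 12.52 for Pdlim7. Oncogene replicate 4 was low at 13.32 for Cnn2, 12.72 for Tpm1 and 13.20 for Tpm4 and high at 12.92 for Tln1, and oncogene replicate 1 was low at 12.61 for Actn1. Control replicate 5 was low at 12.68 for Myl9 and 13.77 for Tagln, control replicate 1 was high at 8.65 for Myh11 and control replicate 2 at 7.26 for Myocd. Double replicate 1 was low at 10.46 for Myh10.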

How the results depend on the processing

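The members' median difference kept its sign in 254 of 255 alternatives, the exception being double against oncogene with Xist as a covariate (0.16 against -0.11). The counts of members called were less stable. Leaving out each array in turn gave 2 to 10 in double against control, 0 to 1 in Wt1-null against control, 0 to 3 in oncogene against control, 0 to 19 in double against Wt1-null, 0 to 8 in oncogene against Wt1-null and 0 in both double against oncogene and the interaction. Array weights gave 18 (2 higher, Myh10 and Srf) in double against control, 19 (all higher) in Wt1-null against control, 9 (7 lower) in oncogene against control, 29 in double against Wt1-null, 18 in oncogene against Wt1-null and, for the interaction, 14, with the last 3 counts all lower. These fits called 33.2%, 33.1%, 24.3%, 19.2%, 7.57% and 15.1% of all genes. In oncogene against control, where 0 were called, 1 was called without dim genes (2.80% of all genes), with the accession set as a fixed block (called higher, 2.83%), in accession set 3 alone (1.70%) and with Xist as a covariate (1.93%). A fit of the groups compared alone gave 3 (4.23% of all genes), and for Wt1-null against control it gave 2 (3.29%). In double against control, with 5 called, the number was 2 with Xist as a covariate (3.86% of all genes), 11 without oncogene replicate 4 and double replicate 4 (10.1%), and 3 with Wt1-null replicates 3 and 4 averaged (5.29%). In double against Wt1-null, with 0 called, it was 1 without dim genes (0.123% of all genes), 1 with a trended and robust variance (0.110%) and 2 without the pair of arrays that stood apart (0.132%). Without Wt1-null replicate 2 and with replicates 3 and 4 averaged the numbers were 2, 10, 11 and 4 in oncogene against control, double against control, double against Wt1-null and oncogene against Wt1-null. That fit called 2.28%, 6.43%, 1.95% and 0.407% of all genes in the same order. The cause of these shifts was not tested. Single values changed sign for Myh10 in Wt1-null against control with probe set 1441057_at (-0.0071), Tagln in double against oncogene with Xist as a covariate (0.0497) and Limch1 in double against Wt1-null with probe set 1440776_at (0.0093).

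The replicate number did not pair the arrays as a whole: deviations of 28 same-numbered pairs correlated by 0.0613 on average, with 13 above 0.1. They ran from -0.4706 to 0.773, and 152 other pairs from -0.6443 to 0.7059, with a mean of -0.0089. The highest was that of oncogene and double replicate 4. Whether some same-numbered arrays share a culture was not tested. With the replicate number as a block, 1 member was called in oncogene against control, against 1.69% of all genes. No other count of members moved by over 1.5 times. Members read near the top of the scale, such as Acta2, and near the background, such as Myocd, have compressed differences.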
